A study of Homo sapiens with 4 samples.

Results

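Calcium pumps and cation-chloride cotransporters were described as a group of 8 genes, taken by symbol from a table of 62710 Ensembl genes. The group held the calcium ATPases ATP2A2, ATP2B1, ATP2B4 and ATP2C1, the sodium-calcium exchanger SLC8B1, and the cotransporters SLC12A2, SLC12A4 and SLC12A7. Messenger RNA had been sequenced from HGC27 cells in 0.3 µM periplocymarin, HGC27 cells in 0.1% DMSO, MKN45 cells in 0.3 µM periplocymarin and MKN45 cells in 0.1% DMSO, each for 24 h. Below, treated cells are those in periplocymarin and vehicle cells those in DMSO. With 1 library for each line and treatment, values within a line are given without a p-value, since no replicate checks them. Both are established human gastric cancer lines, grown in the same serum-containing medium. HGC27 derives from an undifferentiated carcinoma and MKN45 from a poorly differentiated adenocarcinoma. All 8 genes were found and all had reads in all 4 libraries. Of the 8, 7 passed the filter on low values for the test over both lines, and SLC8B1 did not.

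Periplocymarin is a cardiac glycoside, a plant steroid that binds the Na,K-ATPase and blocks the export of sodium and import of potassium. The sodium gradient set by that pump drives many other carriers, among them sodium-calcium exchangers and the sodium-potassium-chloride cotransporter encoded by SLC12A2. Calcium leaves the cytosol through ATP-driven pumps. SERCA pumps (ATP2A genes) load the endoplasmic reticulum, PMCA pumps (ATP2B genes) export calcium across the plasma membrane, and SPCA pumps (ATP2C genes) load the Golgi with calcium and manganese. SLC8B1 encodes NCLX, which exchanges sodium for calcium across the inner mitochondrial membrane. SLC12A2 (NKCC1) brings sodium, potassium and chloride into cells, while SLC12A4 (KCC1) and SLC12A7 (KCC4) carry potassium and chloride out.

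Sequences before a RefSeq start of ATP2A2 and of SLC12A2 are shown because these were the 2 genes of the group at least 2-fold higher in treated HGC27 on the log2(FPKM + 1) scale. Of the pair, ATP2A2 was also higher in treated MKN45 and SLC12A2 was not. Both stretches are RefSeq sequences of GRCh38.p14, plus strand, written 5′ to 3′. Capitals mark the GC box GGGCGG on either strand. The ATP2A2 stretch is chr12:110280997-110281115, 119 bases that end before the first GENCODE 29 exon they meet. It lies before the RefSeq start at 110281247 and inside the longer GENCODE 29 gene model, which begins further upstream. For SLC12A2 the stretch is chr5:128083516-128083765, the 250 bases before its RefSeq transcript start.
ATP2A2: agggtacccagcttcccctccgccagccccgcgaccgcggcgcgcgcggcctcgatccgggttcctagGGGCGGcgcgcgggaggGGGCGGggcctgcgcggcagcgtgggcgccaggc
SLC12A2: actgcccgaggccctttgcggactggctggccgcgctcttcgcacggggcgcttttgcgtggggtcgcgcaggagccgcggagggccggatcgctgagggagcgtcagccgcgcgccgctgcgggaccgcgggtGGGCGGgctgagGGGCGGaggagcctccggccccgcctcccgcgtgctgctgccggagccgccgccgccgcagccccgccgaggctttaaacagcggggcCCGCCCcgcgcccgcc
The 119 bases of ATP2A2 held 2 GC boxes with 82.4% G and C, and the 250 bases of SLC12A2 held 3 with 79.6% G and C. The full 250 bases before the ATP2A2 start at 110281247 held 4 GC boxes, so the counts of the 2 printed stretches are of unlike lengths. Over the 250 bases before each of 15 RefSeq starts of the 8 genes, 11 windows held a GC box, against 42.6% of 35116 windows of the same length over all genes. The CCAAT box CCAAT was in 2 of the 15 windows, 1 of ATP2A2 and 1 of SLC12A4, against 32.0% of all windows. The TATA box TATAAA was in 0 of the 15, against 10.7%. Both strands were searched. Several genes have more than 1 of the 15 windows, and some windows of SLC12A4 overlap. G and C made up 41.6% to 80.8% of the 15 windows, beside a median of 58% over all windows. The shares with a box were not matched for G and C. A match describes these letters and not a bound site, and which start the cells used was not tested.

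The reads recovered from the deposited values came to 24782492 in treated and 26629277 in vehicle HGC27, and to 27519299 in treated and 36292754 in vehicle MKN45. Levels are in FPKM, read counts scaled to gene length and to library size, so they can be compared between genes. Fewer genes were above 0 in treated than in vehicle cells, at 21774 against 25992 in HGC27 and 21757 against 25494 in MKN45. Differences also varied with level. Among genes at a mean of 1 to 3 FPKM the median fitted log2 difference was -0.29. At 3 to 10 FPKM it was 0.02, at 10 to 30 FPKM 0.34, at 30 to 100 FPKM 0.52, and at 100 FPKM or more 0.35. Scaling the libraries to their totals alone moved the median difference of all genes by -0.29 in HGC27 and by -0.19 in MKN45. The part of depth, level and scaling in the results below was not tested beyond the alternatives given. Of 6 epithelial markers the summed level was 0.654 and 2.30 FPKM in treated and vehicle HGC27, where EPCAM was listed at 0 after treatment, and 2882 and 1622 FPKM in treated and vehicle MKN45. In MKN45 EPCAM, KRT8 and KRT18 were higher in treated cells, and CDH1, KRT19 and CLDN7 were lower. The 6 mesenchymal markers summed to 796 and 611 FPKM in treated and vehicle HGC27, and to 0.506 and 0.693 FPKM in treated and vehicle MKN45. In HGC27 COL3A1 was at 349 and 147 FPKM in treated and vehicle cells, while VIM was at 380 and 406 FPKM. Of the mesenchymal markers CDH2 was listed at 0 in treated HGC27 and in both MKN45 libraries, and SPARC in treated MKN45. HGC27 thus carried almost no mRNA of the epithelial markers under either condition. In bulk samples, fewer cells of a type and less RNA per cell cannot be told apart.

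ATP2A2, which encodes the widely expressed SERCA pump of the endoplasmic reticulum, was the 1 gene of the group that rose over both lines. Its level was 39.1 FPKM in treated and 14.7 FPKM in vehicle HGC27, from 12658 and 6522 reads. In MKN45 it was 58.9 FPKM in treated and 25.0 FPKM in vehicle cells, from 19292 and 12681 reads. Treated cells were the higher in each line, and treated HGC27 also stood above vehicle MKN45. The ratio of FPKM was 2.66 in HGC27, with a 95% Clopper-Pearson interval of 2.58 to 2.74, and 2.35 in MKN45, with an interval of 2.30 to 2.40. Such intervals cover counting error only, because libraries were not replicated and no molecular identifiers are given. In a fit over both lines with cell line as a block, ATP2A2 rose by 1.28 ± 0.27 on the log2(FPKM + 1) scale (limma moderated SE, Benjamini-Hochberg adjusted p = 0.0324). It ranked 274 from the highest of 12353 genes. Of 1096 genes at a mean of 30 to 100 FPKM, the range that holds ATP2A2 at 34.4 FPKM, 12.3% rose. The call was lost with quantile normalization, where the difference was 0.88 (limma adjusted p = 0.0770). It was also lost without a filter on low values (limma adjusted p = 0.346) and without the term for cell line (limma adjusted p = 0.828).

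Over both lines 1 of the 7 tested genes rose, against 3.43% of all 12353 genes, and 0 fell, against 3.17%. At an unadjusted p under 0.05 limma put 2 of the 7 higher (15.9% of all genes tested) and 1 lower (12.6%). Limma-voom on recovered reads called 1 higher (7.92% of 12060 genes) and 0 lower (5.78%). Of the 7, 6 had a fitted difference above 0, as had 54.0% of all genes tested. The median over the 7 was 0.51, beside 0.06 over all genes. That of all genes varied with level. At 3 to 10 FPKM, which holds ATP2B4, SLC12A2 and SLC12A4, it was 0.02. At 10 to 30 FPKM, which holds ATP2B1, ATP2C1 and SLC12A7, it was 0.34, and 6.39% rose. At 30 to 100 FPKM, which holds ATP2A2, it was 0.52. At a difference of at least 1 on the log2(FPKM + 1) scale, called 2-fold here, 2 of 7 measured genes were higher in treated HGC27 (9.72% of all measured genes) and 0 were lower (10.4%). In treated MKN45 1 of 8 was higher (8.21%) and 1 of 8 lower (8.94%).

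**Figure D1:**
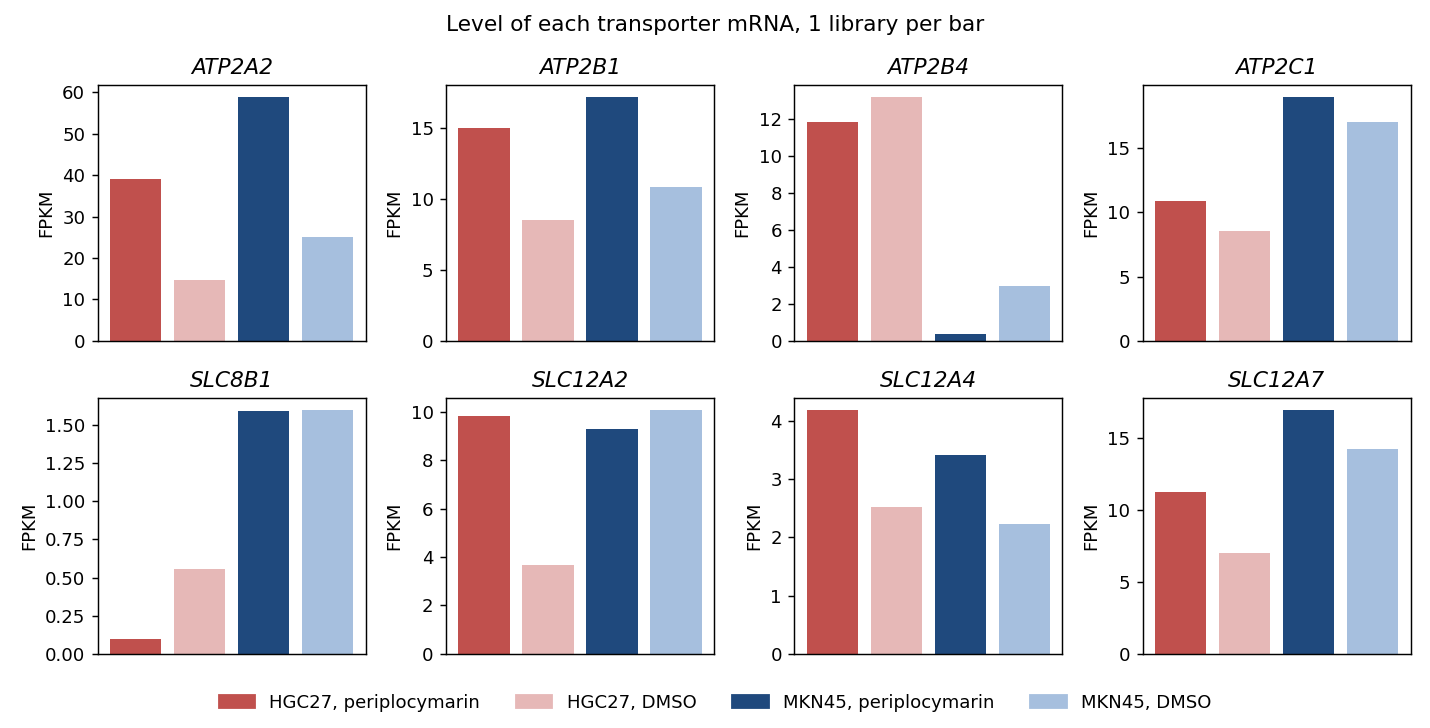
Level in FPKM of each of the 8 genes in 4 libraries, 1 bar per library, each panel on its own axis from 0. ATP2A2, ATP2B1, ATP2C1, SLC12A4 and SLC12A7 stood higher in treated than vehicle cells of both lines, ATP2B4 was near 0 in treated MKN45, and SLC12A2 was low in vehicle HGC27 alone.

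The fitted differences of the plasma membrane pumps lay on opposite sides of 0, and neither passed the test. ATP2B1, which encodes the broadly expressed PMCA1, was at 15.0 FPKM in treated and 8.53 FPKM in vehicle HGC27, and at 17.2 FPKM in treated and 10.8 FPKM in vehicle MKN45. It was higher in treated cells of both lines, with a fitted difference of 0.68 ± 0.28 (limma adjusted p = 0.147). The ratio of FPKM was 1.75 in HGC27 (counting interval 1.67 to 1.85) and 1.59 in MKN45 (1.52 to 1.66). Antisense gene models overlap ATP2B1, but the 2 of them in the table stayed at or under 0.202 FPKM.

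ATP2B4, which encodes PMCA4, was at 11.8 FPKM in treated and 13.2 FPKM in vehicle HGC27. In MKN45 it was at 0.384 FPKM in treated cells, from 87 reads, and at 2.96 FPKM in vehicle cells, from 1038 reads. The lines stood apart under vehicle already, and treated MKN45 was by far the lowest of the 4 libraries. Treated over vehicle, the ratio of FPKM was 0.897 in HGC27 (counting interval 0.854 to 0.942) and 0.130 in MKN45 (0.103 to 0.161). Over both lines the fitted difference was -0.83 ± 0.36 (limma adjusted p = 0.167). With a pseudocount of 0.1 in place of 1 the difference in MKN45 was -2.66 in place of -1.52, and the fitted one -1.41, still not past the threshold (limma adjusted p = 0.0966). Whether the lines differed in this was not tested, as 4 libraries leave no spread to test it against.

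ATP2C1 encodes SPCA1, the widely expressed Golgi pump. It was at 10.9 FPKM in treated and 8.52 FPKM in vehicle HGC27, and at 19.0 FPKM in treated and 17.0 FPKM in vehicle MKN45. The gap between lines was larger than that between treatments. Its fitted difference of 0.23 ± 0.28 did not pass (limma adjusted p = 0.611) and changed sign under other scalings, at -0.01 with quantile normalization and -0.03 with library totals alone. ASTE1, a protein-coding gene on the opposite strand, overlaps ATP2C1 and was at 2.44 and 2.28 FPKM in treated and vehicle HGC27, and at 3.54 and 3.59 FPKM in treated and vehicle MKN45. No strand setting is given in the sources used here, so reads of the pair cannot be told apart.

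SLC8B1, the mitochondrial exchanger, was the lowest of the 8 by its mean, 0.961 FPKM over the 4 libraries, and fell short of the minimum of 1 FPKM for the test. In HGC27 it was at 0.0941 FPKM in treated cells, from 15 reads, and at 0.559 FPKM in vehicle cells, from 122 reads. MKN45 held 1.59 FPKM in treated and 1.60 FPKM in vehicle cells, from 257 and 399 reads. Treated over vehicle, the ratio of FPKM was 0.168 in HGC27, with a counting interval of 0.0915 to 0.289 that rests on those 15 reads, and 0.996 in MKN45 (0.848 to 1.17). The difference in MKN45 was thus not detectable at this depth, and HGC27 was below the level set for measured genes. PLBD2 overlaps SLC8B1 on the opposite strand and was at 11.8 and 4.78 FPKM in treated and vehicle HGC27, and at 8.56 and 5.29 FPKM in treated and vehicle MKN45.

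**Figure D2:**
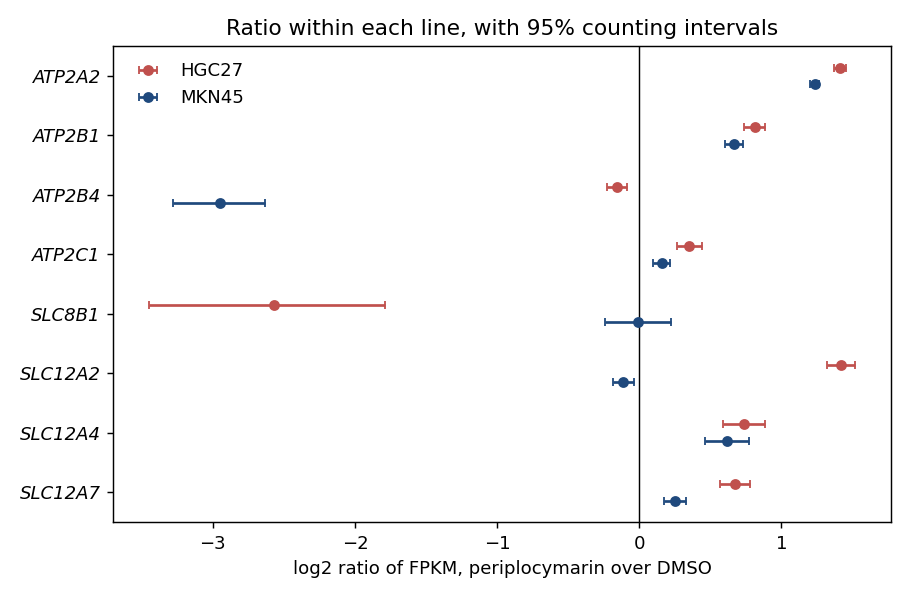
Treated over vehicle log2 ratio of FPKM within each line for the 8 genes, with 95% Clopper-Pearson intervals from read counts that cover counting error only. ATP2A2 lay at 1.41 in HGC27 and 1.23 in MKN45, SLC12A2 at 1.42 and -0.11, and ATP2B4 at -0.16 and -2.95.

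Within a library the make-up of calcium pump mRNA is not changed by a factor applied to the whole library, though summed levels are. A shift that varies with level, as given above, can change the make-up too, and its part was not tested. Summed over all 9 ATP2A, ATP2B and ATP2C genes, pump mRNA came to 79.1 FPKM in treated and 48.2 FPKM in vehicle HGC27, and to 98.6 FPKM in treated and 63.5 FPKM in vehicle MKN45. ATP2A2 made up 49.5% of that sum in treated and 30.5% in vehicle HGC27, and 59.7% in treated and 39.4% in vehicle MKN45. It was the most abundant pump mRNA of all 4 libraries. ATP2B1 held a nearly even share, 18.9% and 17.7% in treated and vehicle HGC27, and 17.4% and 17.1% in treated and vehicle MKN45. ATP2B4 took 14.9% in treated and 27.3% in vehicle HGC27, and 0.390% in treated and 4.67% in vehicle MKN45. The level of ATP2A2 divided by that of ATP2C1 was 3.59 in treated and 1.73 in vehicle HGC27, and 3.11 in treated and 1.47 in vehicle MKN45. ATP2B1 over ATP2B4 was 1.27 in treated and 0.648 in vehicle HGC27, and 44.7 in treated and 3.65 in vehicle MKN45. In HGC27 the order of these 2 plasma membrane pumps therefore differed between treated and vehicle cells, while in MKN45 ATP2B1 was the higher in both. These shares come from single libraries and were not tested.

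**Figure D3:**
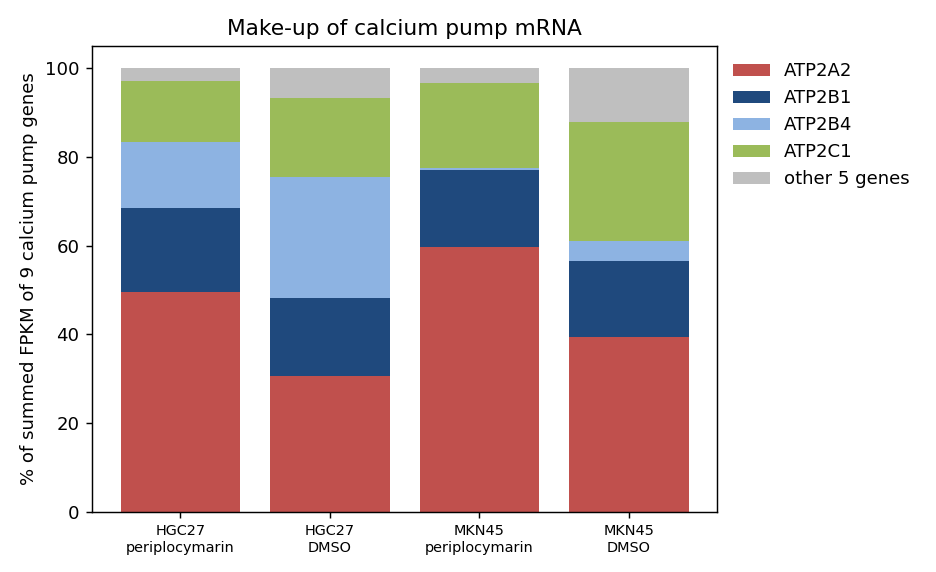
Share of each gene in the summed FPKM of 9 calcium pump genes, in percent, 1 bar per library. The ATP2A2 share was 49.5% in treated and 30.5% in vehicle HGC27, and 59.7% in treated and 39.4% in vehicle MKN45.

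SLC12A2, the sodium-potassium-chloride importer NKCC1, was 2-fold higher in treated HGC27 and close to its vehicle level in MKN45, a difference between lines that was not tested. It was at 9.84 FPKM in treated and 3.68 FPKM in vehicle HGC27, from 2469 and 1264 reads. In MKN45 it was at 9.32 FPKM in treated and 10.1 FPKM in vehicle cells, from 2367 and 3960 reads. Vehicle HGC27 was the library that stood apart, and the other 3 lay between 9.32 and 10.1 FPKM. The ratio of FPKM was 2.68 in HGC27 (counting interval 2.50 to 2.87) and 0.924 in MKN45 (0.878 to 0.972). On the log2(FPKM + 1) scale the difference was 1.21 in HGC27 and -0.10 in MKN45. Under the other scalings and pseudocount tried it lay between 0.92 and 1.40 in HGC27 and between -0.31 and -0.10 in MKN45, so that it dropped below 2-fold in HGC27 with library totals alone. The fitted difference of 0.55 ± 0.35 over both lines did not pass the test (limma adjusted p = 0.327).

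The potassium-chloride exporters were higher in treated cells of both lines, by less than 2-fold. SLC12A4 (KCC1) was at 4.19 FPKM in treated and 2.52 FPKM in vehicle HGC27, and at 3.41 FPKM in treated and 2.23 FPKM in vehicle MKN45. Both treated libraries stood above both vehicle libraries. Its fitted difference was 0.51 ± 0.29 (limma adjusted p = 0.283). SLC12A7 (KCC4) was at 11.2 FPKM in treated and 7.03 FPKM in vehicle HGC27, and at 16.9 FPKM in treated and 14.2 FPKM in vehicle MKN45. Here both MKN45 libraries stood above both HGC27 libraries, and the fitted difference was 0.42 ± 0.29 (limma adjusted p = 0.356). Neither passed the test. In MKN45 the SLC12A7 difference of 0.24 turned to -0.02 with quantile normalization. LCAT, which overlaps SLC12A4 on the same strand, was at most 1.10 FPKM.

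The exporter mRNAs SLC12A4 and SLC12A7 summed to 15.4 FPKM in treated and 9.55 FPKM in vehicle HGC27, and to 20.3 FPKM in treated and 16.4 FPKM in vehicle MKN45. Divided by that sum, the importer SLC12A2 was 0.639 in treated and 0.385 in vehicle HGC27, and 0.458 in treated and 0.614 in vehicle MKN45. The ratio of the importer to these exporters was thus higher in treated than vehicle HGC27 and lower in treated than vehicle MKN45, a difference that single libraries cannot test.

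The genes that work with these transporters were read from 8 lists of 63 genes. Of 40 tested, 2 rose, 1 fell and 37 did not pass, beside 3.43% higher and 3.17% lower among all genes. Their median fitted difference was 0.28, beside 0.06 over all genes. The all-gene median varied with level, as given above, and neither this median nor those of single lists below were matched for level. At an unadjusted p under 0.05 limma put 13 higher and 1 lower, beside 15.9% and 12.6% of all genes, and limma-voom called 10 higher and 1 lower, beside 7.92% and 5.78%. The unadjusted and limma-voom counts of single lists below have these same background shares.

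CALM2 encodes calmodulin, the calcium sensor that binds and activates plasma membrane calcium pumps. It rose by 1.30 ± 0.29 (limma adjusted p = 0.0342). Its level was 128 FPKM in treated and 41.2 FPKM in vehicle HGC27, and 103 FPKM in treated and 51.5 FPKM in vehicle MKN45. CALM3, which encodes the same protein, was at 43.0 FPKM in treated and 12.3 FPKM in vehicle HGC27 and at 42.6 and 28.8 FPKM in treated and vehicle MKN45, and did not pass (fitted 1.14 ± 0.33, limma adjusted p = 0.0668). NPTN, the neuroplastin subunit of plasma membrane calcium pumps, was at 33.5 FPKM in treated and 8.66 FPKM in vehicle HGC27, and at 52.4 FPKM in treated and 32.1 FPKM in vehicle MKN45. It did not pass either (fitted 1.26 ± 0.33, limma adjusted p = 0.0515). In the list of pump subunits and small regulators 1 of 5 tested genes rose and 0 fell, with a median of 1.14. Limma at an unadjusted p under 0.05 and limma-voom each put 3 of the 5 higher and 0 lower. The SERCA inhibitors PLN and SLN were each above 0 in a single library, at no more than 0.0937 FPKM. CALM2 has processed pseudogenes, so its values are uncertain where reads could be shared, and the call was lost with quantile normalization (0.83, limma adjusted p = 0.0844).

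Among 6 tested kinases and scaffolds that act on cation-chloride cotransporters, 1 rose and 0 fell. It was CAB39L, a scaffold of the MO25 family that activates the kinases encoded by STK39 and OXSR1, which in turn phosphorylate these cotransporters. CAB39L rose by 1.27 ± 0.32 (limma adjusted p = 0.0464), at 6.39 FPKM in treated and 1.38 FPKM in vehicle HGC27, and at 3.52 FPKM in treated and 1.42 FPKM in vehicle MKN45. OXSR1 was at 15.0 FPKM in treated and 8.26 FPKM in vehicle HGC27 and at 46.2 FPKM in treated and 16.4 FPKM in vehicle MKN45, and did not pass (fitted 1.12 ± 0.30, limma adjusted p = 0.0527). STK39 was at 2.56 FPKM in treated and 7.24 FPKM in vehicle HGC27, and at 17.1 FPKM in treated and 12.3 FPKM in vehicle MKN45. At an unadjusted p under 0.05, and by limma-voom, 2 of the 6 were higher and 0 lower.

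Of 9 tested genes of calcium release and store-operated entry, 1 fell and 0 rose. ORAI3, a pore subunit of plasma membrane calcium channels, fell by 1.30 ± 0.32 (limma adjusted p = 0.0449). It was at 0.305 FPKM in treated and 1.90 FPKM in vehicle HGC27, from 19 and 162 reads, and at 0.556 FPKM in treated and 3.27 FPKM in vehicle MKN45, from 35 and 318 reads. Both treated libraries lay below both vehicle libraries. The call was lost with quantile normalization (-1.04, limma adjusted p = 0.0921), and the difference was -2.33 with a pseudocount of 0.1 and -2.57 with limma-voom. The calls of CALM2, CAB39L and ORAI3 were each lost without the low-value filter (limma adjusted p = 0.346) and without the term for cell line (limma adjusted p = 0.828). At an unadjusted p under 0.05, and by limma-voom, 1 of the 9 was higher and 1 lower.

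In the other lists no tested gene passed with limma. Of 7 mitochondrial calcium genes 0 rose and 0 fell, with a median of 0.48 (3 higher and 0 lower at an unadjusted p under 0.05, and 2 higher and 0 lower by limma-voom). Of 9 calcium binders of the endoplasmic reticulum, the store that ATP2A2 fills, 0 rose and 0 fell, with a median of 0.48 (4 higher and 0 lower unadjusted, 2 higher and 0 lower by limma-voom). Their fitted differences ran from -0.37 for PDIA4, a disulfide isomerase, to 0.87 for CALU, the calcium binder calumenin, and 7 of the 9 were above 0. The other 5 calcium pumps reached no more than 3.68 FPKM in any library, and of the 2 tested none passed at either an adjusted or an unadjusted p under 0.05 or by limma-voom. The same held for the 1 tested exchanger, SLC8A1, and for SLC12A9, a further gene of the cotransporter family. SLC8A1 was at 2.07 and 2.05 FPKM in treated and vehicle HGC27. In MKN45 SLC8A1 was at 0 FPKM in treated and 0.0219 FPKM in vehicle cells, too low to show a response there. Of 8 sodium-calcium and sodium-potassium-calcium exchangers, 6 stayed below 1 FPKM in each of the 4 libraries. SLC24A1, a sodium-potassium-calcium exchanger best known from rod photoreceptors, was at least 2-fold lower in both lines but too low for the test. In MKN45 its mean of 0.896 FPKM was also below the level set for measured genes, so it is not counted as 2-fold lower there. It was at 0.0795 FPKM in treated and 2.12 FPKM in vehicle HGC27, from 17 and 620 reads, and at 0.175 FPKM in treated and 1.62 FPKM in vehicle MKN45, from 38 and 541 reads.

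**Figure D4:**
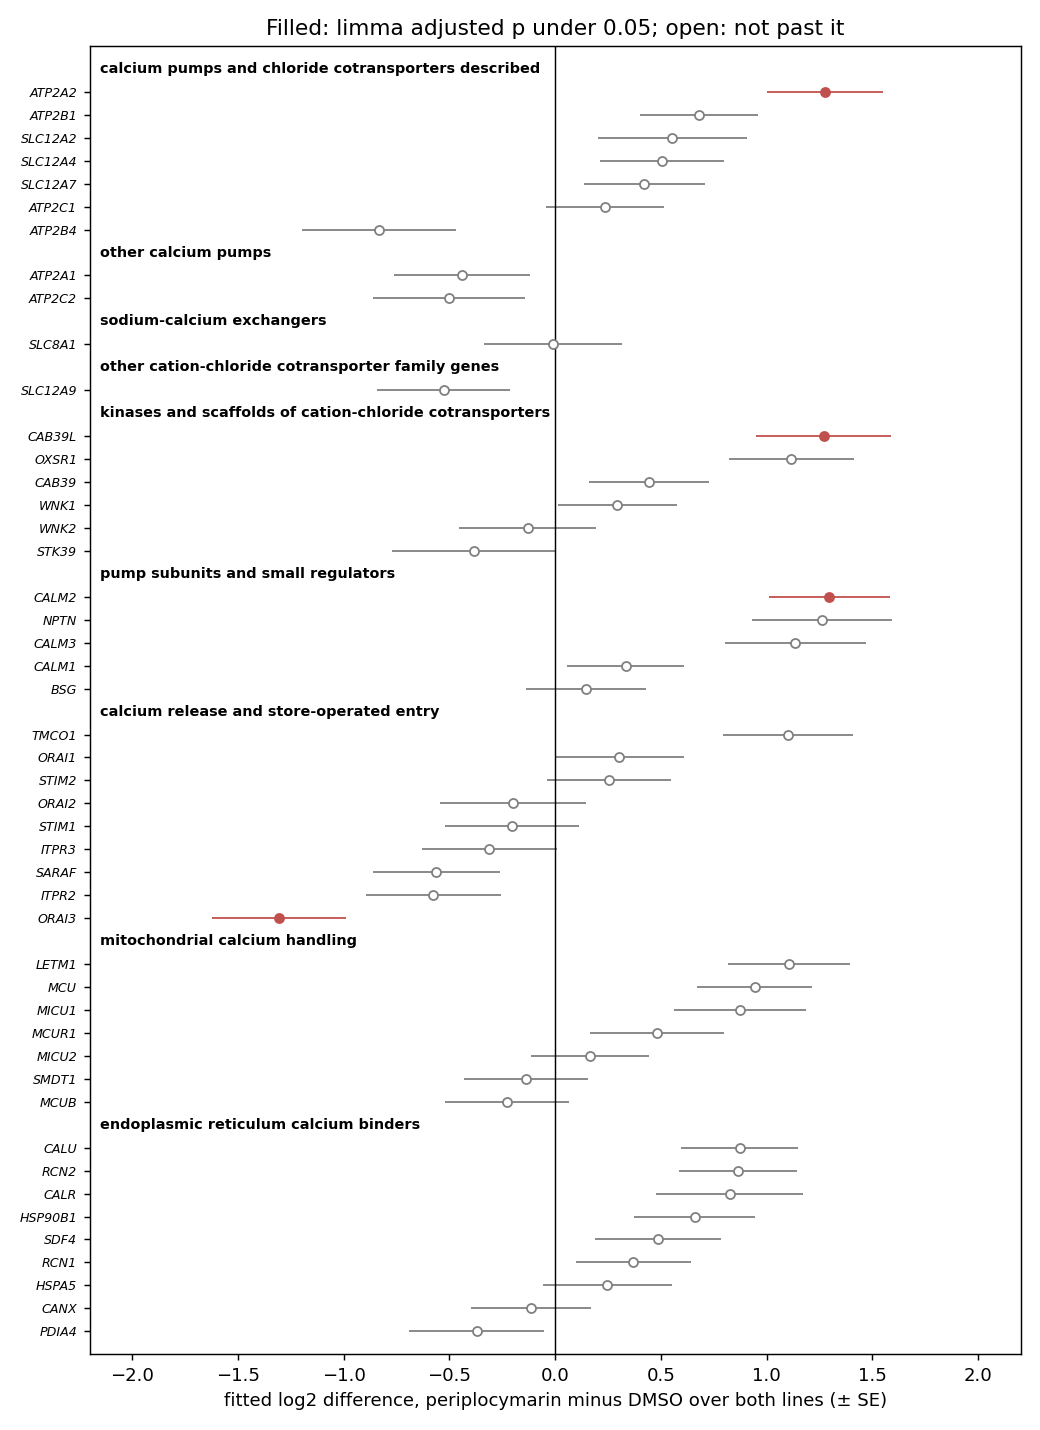
Fitted log2 difference over both lines, periplocymarin minus DMSO, with limma's moderated SE, for the 7 tested transporter genes and 40 tested genes of the 8 lists. Filled points are past the threshold (ATP2A2, CALM2 and CAB39L above 0, ORAI3 below), and open points are not.

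The genes nearest in pattern were found by Euclidean distance between mean-centred log2(FPKM + 1) values over the 4 libraries. Candidates were the 4452 or 4453 other tested genes with a mean of 10 FPKM or more. For ATP2A2 they were SNRPD1, a core spliceosome protein gene, at a distance of 0.0681, MKI67, the proliferation marker Ki-67, at 0.0984, and EMC7, of the endoplasmic reticulum membrane protein complex, at 0.101. SNRPD1 was at 40.8 FPKM in treated and 15.9 FPKM in vehicle HGC27, and at 59.6 FPKM in treated and 26.7 FPKM in vehicle MKN45, close to ATP2A2 in each library. For SLC12A2 the nearest were SDF2L1 (0.108), GIT1 (0.148) and APMAP (0.162). SDF2L1, an endoplasmic reticulum chaperone component, was at 14.2 FPKM in treated and 5.82 FPKM in vehicle HGC27, and at 14.8 FPKM in treated and 14.5 FPKM in vehicle MKN45. No gene lay as close to ATP2B4, whose nearest were RHOQ (0.333), UNC5B (0.356) and PAM (0.359). With 4 libraries such distances describe a shape and nothing more.

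In GRCh38 with the GENCODE 29 annotation, all 8 are protein-coding. ATP2A2 spans 110280756 to 110351093 of chromosome 12 on the plus strand, overlapped by no other gene model. ATP2B1 lies on chromosome 12 from 89588049 to 89709300, minus strand, and SLC8B1 on the same chromosome from 113298759 to 113359493, minus strand. ATP2B4 lies on chromosome 1 from 203626561 to 203744081, plus strand. ATP2C1 lies on chromosome 3 from 130850595 to 131016712, plus strand. SLC12A2 spans 128083766 to 128189688 of chromosome 5 on the plus strand. SLC12A7 is on the minus strand of the same chromosome, from 1050376 to 1112035. SLC12A4 lies on chromosome 16 from 67943474 to 67969601, minus strand.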

How the data were processed

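Poly(A)-selected RNA of 4 samples was analysed from 1 deposited table, with groups taken from the sample titles. The authors deposited FPKM, as judged from the values since no header gives a unit, and the library sizes in them carry a composition factor. Tools and build, per the submitters' processing notes and with no role or order there, include HISAT2 2.1.0, fastp 2.0 and hg38. Counter and strand setting: not given in the sources used here. Of 62710 identifiers, 62639 matched a symbol.

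Steps between low values gave what 1 read is worth. With GENCODE 29 lengths 49.9% of genes came out whole (tolerance 0.0001 reads). For others, lengths were searched over a wide range and not only near these. The shortest that gave whole reads was taken, at its multiple nearest the GENCODE 29 length. All 20299 genes above 0 in at least 3 libraries then came out whole. ATP2C1 could also fit fewer reads. Reads served for depth, counting intervals (95%, exact Clopper-Pearson) and limma-voom.

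Treatment over both lines was fitted with limma 3.58.1 (R 4.3.3; lmFit, eBayes with trend; 8.53 prior and 1 residual degree of freedom) on log2(FPKM + 1), with line as a block. Genes needed means of 1 FPKM and 10 reads over the 4 libraries; within a line, measured genes needed a mean of 1 FPKM over its 2 libraries. The threshold was a Benjamini-Hochberg adjusted p under 0.05. Nothing says how cultures were kept apart, so p-values do not measure the spread between independent cultures. With 1 residual degree of freedom they rest mostly on the variance of other genes. The rest comes from how far the 2 lines differ in their response. The fit was also run on simulated reads, with the same fold in both lines and no shift with level, unlike these data. That run does not check the calls made here.

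The 8 genes and the lists were chosen with earlier results of these data known. Named were all 8 genes, list genes past the threshold or at least 2-fold apart in 1 direction in both lines, and the 3 tested genes nearest in pattern to a described gene. CALM3, NPTN, OXSR1, STK39, PDIA4 and CALU were named after their values were seen, and 1 gene of the lists is not reported here. Of the marker lists not given above, 4 blood and 3 endothelial genes summed to at most 0.357 and 0.0245 FPKM in any library. The alternatives were 2 other scalings (quantile, library totals), 2 other low-value filters (none, 10 FPKM), another pseudocount (0.1), limma-voom, and leaving out the line term. Intervals and figures were made with scipy 1.17.1 and matplotlib 3.10.9 in Python 3.11.15.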

Additional observations from a re-analysis of the deposited data

Results flagged for a closer look

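SLC12A2 lay on opposite sides of 0 in the 2 lines, with a treated minus vehicle difference of 1.21 in HGC27 and of -0.10 in MKN45 on the log2(FPKM + 1) scale. Both ratios lay beyond counting error, and the difference between the lines was not tested, since each line has 1 treated and 1 vehicle library.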

How the results depend on the processing

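The fit pairs treated and vehicle libraries by cell line, and the labels give no replicate numbers for any other pairing. Cell line is a term of the fit reported. Over both lines 424 genes rose and 392 fell (52.0% upward). The higher and lower counts were 180 and 350 with quantile normalization (34.0% upward), 356 and 1160 with library totals alone (23.5% upward), 1055 and 199 at a floor of 10 FPKM (84.1% upward), 750 and 730 with a pseudocount of 0.1, and 955 and 697 with limma-voom. Without the low-value filter and without the term for cell line limma called 0 and 0, with 1910 and 2396 at an unadjusted p under 0.05 in the first and 432 and 264 in the second. The cause of these moves was not tested.

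Of the 8 genes, ATP2A2 alone was called, and 0 were called with quantile normalization (0.88), without the low-value filter (1.28) or without the term for cell line (1.28). Its difference ran from 0.88 to 1.32 over the 7 alternatives, with limma adjusted p from 0.000779 to 0.828. ATP2C1 turned to -0.013 with quantile normalization and to -0.032 with library totals alone. The other 5 tested genes kept their sign and stayed short of the threshold in each alternative that could test them. At a floor of 10 FPKM, ATP2B4, SLC12A2 and SLC12A4 were not tested. SLC8B1 was below the low-value filter.

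Of the list genes, 2 were higher and 1 lower. These became 1 and 0 with quantile normalization, 0 and 0 without the filter or the line term, and 11 and 0 at a floor of 10 FPKM. At that floor 1055 of all 4453 genes tested were higher and 199 lower. With a pseudocount of 0.1, 8 list genes were higher, beside 750 of all 12353 genes. With limma-voom 10 list genes were higher, beside 955 of all 12060 genes. Within lines, genes of the 8 at least 2-fold higher in HGC27 numbered 2, and 1 with quantile normalization or library totals alone. In MKN45 there was 1, and 0 with either scaling, ATP2A2 then standing at 0.82 and 0.98. The fewest reads behind a value were the 15 of SLC8B1 in treated HGC27. Leaving out a library would leave a single line, whose differences stand in the report without a test.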
